A study of Mus musculus with 8 samples.

Results

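The genes Mest, Copg2, Cpa4, Cpa5 and Klf14 form an imprinted domain on mouse chromosome 6, and their replication timing was examined in embryonic stem cells with and without depletion of CTCF. These 5 genes, of 21078 protein-coding genes with a timing score, were chosen by name and with a change already in view: Mest replicated earlier after auxin. Their differences between auxin and control, and the timing profile around them, are therefore given as a description. Counts of calls from fits over all genes, windows and bins are printed beside the shares of all features called, and nothing is read from them about the 5 genes. The profile was followed on chromosome 6 from 30000000 to 31500000 (mm10), where 229 of 316864 windows lie. The cells were E14Tg2a embryonic stem cells of a 129/Ola isogenic background, and the submitters' file names give the line as a CTCF degron, in which CTCF is destroyed when auxin is added. Auxin cells received indole-3-acetic acid at 500 µM and are labelled as 2 days after depletion, and control cells received none. Newly copied DNA was labelled by a 2-hour BrdU pulse and recovered from cells sorted into early and late S phase, so 8 libraries gave 4 timing profiles, with 2 per group. No group of cells without the degron received auxin. The files hold no measure of CTCF loss and no expression with which to check the cell type. The labels do not say whether replicates were separate cultures.

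Genomic imprinting is the expression of a gene from the copy of a single parent, set by DNA methylation that differs between the egg and the sperm. Mest, also called Peg1, is expressed from the paternal copy and encodes a hydrolase-like protein of the endoplasmic reticulum, and its promoter carries the methylation mark of the domain on the maternal copy. CTCF is a zinc finger protein that blocks contacts between enhancers and promoters and anchors chromatin loops, and at several imprinted domains it binds the unmethylated copy only. Replication timing is the order in which loci are copied in S phase, and gene-dense, open chromatin tends to be copied first. The scores used here do not separate the parental copies, so each is an average over both.

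Mest lies at 30733506 to 30748466 and has 2 groups of start sites in RefSeq. The 250 bases before each are shown because the start of Mest is where the domain's methylation mark lies. The corresponding bases of Cpa4, at 30568369 to 30592418, are shown because the difference between auxin and control was largest beside that gene. All 3 are on the plus strand, from RefSeq GRCm38.p6, whose coordinates are those of mm10, and CpG dinucleotides, the sites of DNA methylation, are in capitals.
Mest, downstream start, chr6:30737800-30738049: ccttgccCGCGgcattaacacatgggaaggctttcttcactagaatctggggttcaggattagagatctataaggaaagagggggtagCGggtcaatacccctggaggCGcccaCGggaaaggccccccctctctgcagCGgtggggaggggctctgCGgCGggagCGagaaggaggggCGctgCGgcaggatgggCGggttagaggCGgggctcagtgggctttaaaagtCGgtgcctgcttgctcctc
Mest, upstream start, chr6:30733256-30733505: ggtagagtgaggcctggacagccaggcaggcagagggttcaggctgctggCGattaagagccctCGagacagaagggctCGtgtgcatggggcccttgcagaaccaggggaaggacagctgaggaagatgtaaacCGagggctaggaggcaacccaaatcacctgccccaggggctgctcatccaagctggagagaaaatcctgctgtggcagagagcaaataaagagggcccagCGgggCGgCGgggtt
Cpa4, chr6:30568119-30568368: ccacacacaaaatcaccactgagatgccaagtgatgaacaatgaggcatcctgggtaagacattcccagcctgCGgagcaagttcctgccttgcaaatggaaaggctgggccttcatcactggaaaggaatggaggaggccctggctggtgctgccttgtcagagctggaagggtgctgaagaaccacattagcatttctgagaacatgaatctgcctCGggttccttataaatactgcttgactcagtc

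The downstream Mest promoter held 14 CpGs in 250 bases and the upstream one 7, against 2 at Cpa4, 5 at Cpa5 and 19 at Copg2. The median over 32851 promoters in the RefSeq table was 6. A short stretch of the CTCF motif, AGGGGGC, searched on both strands, had 3 matches before the start of Copg2 and none in the windows of Mest, Cpa4 and Cpa5, and 9.43% of all promoters hold it. A longer pattern of the CTCF motif, which 2.07% of all promoters hold, was also searched. It had no match in the windows of Copg2, Mest, Cpa4 and Cpa5, so the matches at Copg2 rest on the short stretch alone. A match is not a measured binding site, and its lack says only that the searched letters are not in those windows. The promoter table has no entry matched to Klf14. Inside the body of Mest lies the microRNA gene Mir335, whose 5p arm is shown with its seed, bases 2 to 8, in capitals because it takes the same timing windows as its host.
mmu-miR-335-5p, chr6:30741314-30741336: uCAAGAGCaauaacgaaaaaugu

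A timing score is the deposited value of a 6-kb window, a higher score means earlier replication, and the SD over all windows was 2.10. A gene's score is the mean of the windows over its body. Mest, covered by 3 windows, scored 0.102 in control replicate 1 and -0.069 in control replicate 2, against 1.02 and 0.708 in auxin replicates 1 and 2. Both auxin profiles were thus above both control profiles, and the lower auxin score exceeded the higher control score by 0.607. The means were 0.016 ± 0.120 in control and 0.865 ± 0.221 with auxin (SD, n = 2 each), a difference of 0.848. Of all 21078 genes, 392, Mest included, had a difference toward earlier replication at least as large. The window that holds Mir335 and the downstream start, at 30738000, went from 0.102 and -0.061 in the controls to 1.03 and 0.704 with auxin. The window of the upstream start, at 30732000, differed by 0.820 and the last window of the gene, at 30744000, by 0.880, so the difference was nearly even along Mest.

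**Figure D1:**
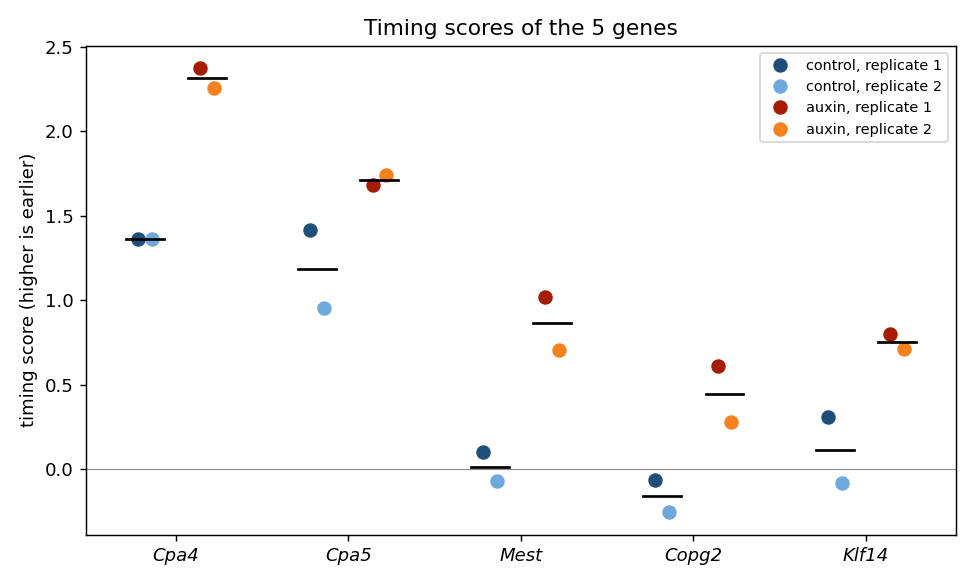
Timing scores (vertical axis, score units, higher is earlier) of the 5 genes, with a point for each of the 4 profiles and a black bar for each group mean (n = 2). In each gene both auxin points lie above both control points, with the widest separation at Cpa4 and the narrowest at Cpa5.

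Copg2, which encodes a gamma subunit of the COPI coat of vesicles that move between the Golgi and the endoplasmic reticulum, runs on the minus strand from 30896815 to 30747554. Its end overlaps that of Mest, and the window at 30744000 counts in both genes. Over its 19 windows Copg2 scored -0.066 and -0.255 in the controls and 0.614 and 0.281 with auxin. The groups did not overlap, and the means went from -0.161 ± 0.134 to 0.447 ± 0.236 (SD, n = 2), a difference of 0.608. The difference was not even along the gene. It was largest, 0.914, in the window at 30750000 next to Mest, stood at 0.774 at 30804000, and was smallest, 0.387, at 30870000 toward the start of Copg2. Between these, from 30756001 to 30798000, 42 kb of the gene hold no window.

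Cpa4 and Cpa5 encode metallocarboxypeptidases, enzymes that remove the last residue of a peptide, and sit on the near side of Mest between the early-replicating flank and the later centre of the domain. Cpa4, with 5 windows, scored 1.364 and 1.362 in the controls and 2.37 and 2.26 with auxin. The control profiles were nearly equal there, and both auxin profiles stood higher by about the same amount. The means were 1.36 ± 0.00090 and 2.32 ± 0.082 (SD, n = 2), and the difference of 0.952 was the largest of the 5 genes. Cpa5, at 30611010 to 30631745 with 5 windows, scored 1.41 and 0.957 in the controls and 1.68 and 1.74 with auxin, a difference of 0.529. Its control profiles were 0.457 apart, so the difference only just exceeded the gap between replicates. Without control replicate 2 the Cpa5 difference was 0.300.

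Klf14, an intronless gene for a Krüppel-like transcription factor that is expressed from the maternal copy, lies at 30956021 to 30958990 and is covered by 1 window. It scored 0.311 and -0.081 in the controls and 0.800 and 0.712 with auxin. The auxin profiles were close together and both above the controls, which were 0.392 apart. The means were 0.115 ± 0.277 and 0.756 ± 0.062 (SD, n = 2), a difference of 0.641 that rests on that single window.

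Among the 5 genes, the order in control cells ran from Cpa4 and Cpa5, which were early (mean above 0.5), to Klf14, Mest and Copg2, which were of middle timing (between -0.5 and 0.5). The control ranges of neighbours in that order overlapped for Cpa4 and Cpa5, for Klf14 and Mest, and for Mest and Copg2. Within a profile, Mest was above Copg2 in all 4 profiles, while Cpa4 and Cpa5, and likewise Klf14 and Mest, changed places between the control profiles. With auxin, Mest and Klf14 also had means above 0.5, Copg2 stayed in the middle class, and the scores of Cpa4 no longer overlapped those of Cpa5. Auxin and control did not overlap, in the direction of earlier replication, in 5 of 5 genes. Over all protein-coding genes 23.9% had that pattern and 25.9% its reverse. A difference of 0.5 or more toward earlier replication was likewise seen in 5 of 5, against 10.3% of all genes. As the genes were chosen on this contrast and share a stretch of the profile, these counts carry no weight of their own.

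A limma fit over all genes called 0 of the 5 at a Benjamini-Hochberg adjusted p under 0.05, where it called 0% of all 21078 genes in either direction. At an unadjusted p under 0.05 the counts were 4 of 5 and 3610 of 21078 (17.1%). With a trended, robust variance limma called 2 of the 5, Mest and Cpa4, both earlier, against 2.01% of all genes called earlier and 3.3% called later. The call thus depended on how the variance was moderated.

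The profile of the interval showed where these genes sit. In control cells the left flank, over the transcription factor gene Nrf1 and the ubiquitin-conjugating enzyme gene Ube2h, replicated early, with a mean of 3.32 ± 0.102 over the first 300 kb (SD, n = 2). Scores then fell across the carboxypeptidase genes. The lowest measured scores lay inside Copg2, at -0.194 (position 30810000) in control replicate 1 and -0.430 (30798000) in control replicate 2. Beyond Klf14 they climbed again to a mean of 1.67 ± 0.213 over the last 300 kb. Mest thus lay near the foot of the falling slope and Copg2 in the valley. In the measured windows the valley was of middle rather than late timing in all 4 profiles. The lowest window of control replicate 2 directly follows 42 kb without windows, so a lower score there may have gone unmeasured.

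**Figure D2:**
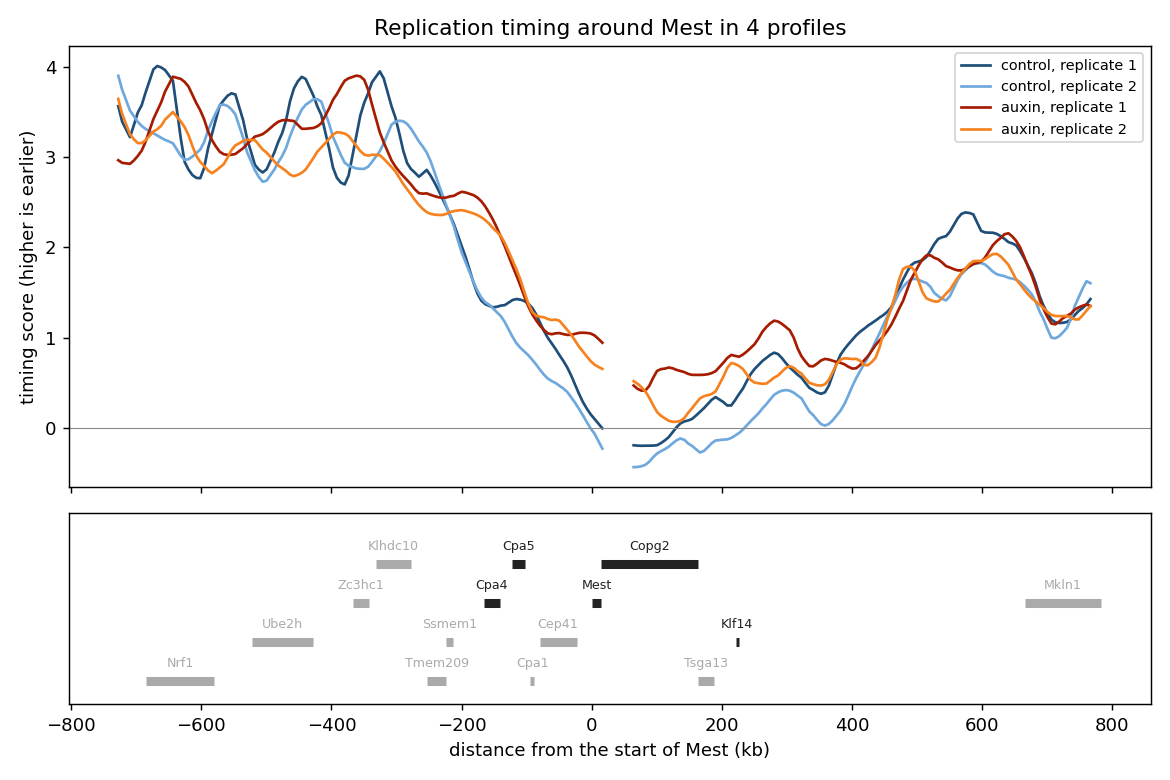
Timing score (vertical axis, score units) against distance from the start of Mest (horizontal axis, kb), with a line for each of the 4 profiles and genes drawn below, the 5 named genes in black. The lines break where windows are missing. The auxin lines lie to the right of the control lines on the falling slope over Cpa4 and above them over Mest.

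With auxin the falling slope lay farther into the domain. The positions at which a profile fell through a set score were read by interpolation between windows, and the scores of 2.0, 1.5 and 1.0 were picked after the profiles were seen. A score of 1.5 was crossed at 30557508 and 30559671 in the control profiles, just before Cpa4, and at 30627957 and 30630472 with auxin, at the end of Cpa5. The shift was 70.6 kb, while replicates of a group were within one 6-kb window of each other. A score of 2.0 was crossed 68.9 kb farther along with auxin, again with both replicates of a group close together. At a score of 1.0 the replicates spread more. The controls crossed it at 30666201 and 30612870 and the auxin profiles at 30742112 and 30705247, a shift of 84.1 kb. With auxin the crossing lay inside Mest in replicate 1 and inside Cep41, the gene before Mest, in replicate 2.

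**Figure D3:**
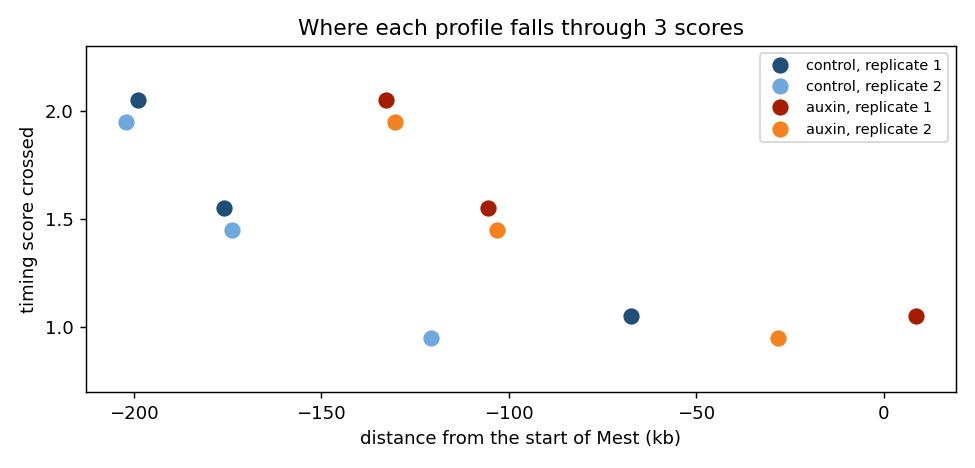
Position at which each profile fell through a timing score of 2.0, 1.5 or 1.0 (vertical axis), as distance from the start of Mest in kb (horizontal axis), with a point for each profile, replicates offset vertically for display. Auxin points lie to the right of control points at each score, by 68.9, 70.6 and 84.1 kb on average.

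Over 200 kb the slope was also shallower. The steepest fall over 200 kb was -2.55 and -2.68 in the controls and -1.70 and -1.73 with auxin, and over 100 kb it was -1.51 and -1.77 against -1.45 and -1.14. Over 200 kb the groups were 0.900 apart, far more than the replicates. Over 100 kb they were 0.351 apart, with SDs of 0.183 in control and 0.218 with auxin. The shallower slope thus rests on the longer span. The 200-kb fall began on the early flank in the controls, at 30408001 and 30456001, and at 30570001 and 30552001 with auxin. In auxin replicate 1 it ended at 30770000, within the 42 kb without windows, so its value there was interpolated. The lowest measured score in the valley was 0.416 and 0.071 with auxin, both above the controls. On the far side, the last rise through 1.0 was at 31136689 and 31172449 in the controls and at 31179440 and 31180076 with auxin, 25.2 kb apart on average, which is about the spread of the controls (SD of 25.3 kb). On that side the shift was no larger than the spread between replicates.

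Along the interval the difference had 3 local high points at or beside the named genes. The first, 0.995 at 30564000, lay just before and at the start of Cpa4, where the controls scored 1.41 and 1.44 and the auxin profiles 2.51 and 2.33. It dropped to 0.229 at 30642000, over Cpa1, where the groups overlapped. The second was the window at 30750000, inside Copg2 and next to Mest, with 0.914. It is the last window before the 42 kb without windows, so where the difference was highest there is not known. The third, 0.693 at 30948000, lay just before Klf14. Both auxin profiles were above both controls in each of the 19 windows from 30516000 to 30636000 and in each of the 45 from 30660000 to 30978000, a stretch that includes the 42 kb of Copg2 without windows. Farther right the groups were apart again from 31038000 to 31110000 (12 windows), by 0.328 on average. From 31164000 to 31194000 (5 windows) they were apart in the later direction, by -0.188, and from 31194000 to 31452000 they overlapped.

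**Figure D4:**
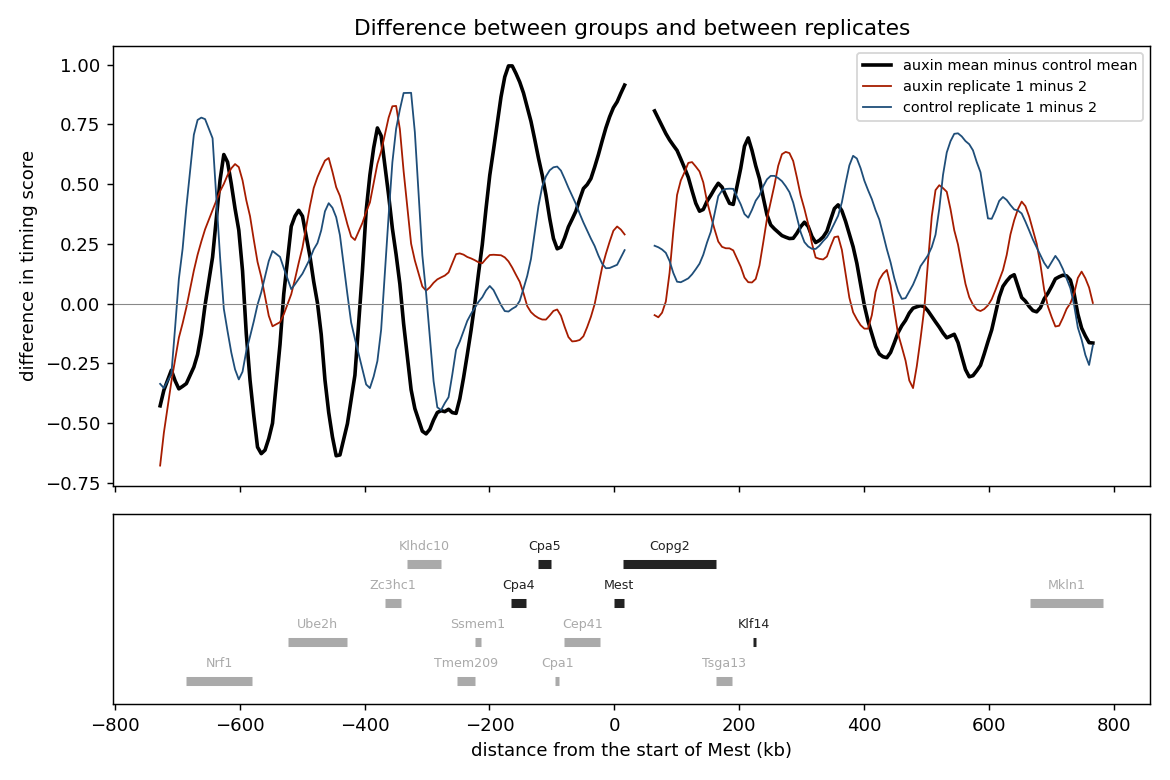
Difference in timing score (vertical axis) against distance from the start of Mest in kb, for the auxin mean minus the control mean (black) and for replicate 1 minus replicate 2 within each group (red, auxin; blue, control). The black line stands clear of the coloured lines over Cpa4 and Mest, while over the early flank the 3 lines swing by similar amounts.

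Differences of both signs were also present away from the named genes. Over the early flank, left of the carboxypeptidase genes, the difference swung in both directions, from 0.735 at 30354000 to -0.637 at 30288000, and at both places the groups did not overlap. Stretches with the groups apart alternated there between earlier and later, each 24 to 78 kb long. In the whole interval, 93 of 229 windows (40.6%) had both auxin scores above both control scores and 38 (16.6%) the reverse, against 26.3% and 25.7% of all windows. The mean differences of Cpa4 and Mest exceeded the largest single-window swing of the flank. Those of Cpa5, Copg2 and Klf14 did not. Single windows of Copg2 did exceed it, up to 0.914 at 30750000. The highest window of Cpa5 (0.687) and the window of Klf14 (0.641) did not. Among flank genes reported here, mean differences ran from -0.429 at Klhdc10 to 0.264 at Zc3hc1. Those of the named genes, chosen on this contrast, were all larger in size, the smallest being 0.529 at Cpa5. The deposited profiles are smooth from window to window, so neighbouring windows are not separate measurements.

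The limma fit over all windows called 0 of 229 in the interval, against 0.366% of all windows called earlier and 0.633% later; at an unadjusted p under 0.05 it had 52 of 229 and 66151 of 316864 (20.9%). Over 50-kb bins with at least 3 windows it called 0 of 29, against 0.637% and 1.02%; unadjusted, it had 6 of 29 and 9261 of 42710 (21.7%). With a trended, robust variance limma called 28 windows, all earlier, against 4.38% of all windows called earlier and 4.88% later. It called 3 bins, all earlier, against 5.17% of all bins called earlier and 5.66% later. The windows formed 3 stretches. The first, at 30552001 to 30612000, ran from before Cpa4 to the start of Cpa5. The others lay at 30708001 to 30840000, over Mest and the end of Copg2, and at 30942001 to 30960000, before and over Klf14. The authors' deposited tables list 63 regions that moved later and 22 that moved earlier, and none lies in the interval. The names of those tables carry the label diff1, which reads as a cutoff on the difference and is not explained. The largest difference in the interval was 0.995. Their limits may thus be unlike those used here.

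Of 10 other protein-coding genes of the interval reported here, 2 had both auxin scores above both control scores, 2 below, and 6 overlapped, where 23.9% and 25.9% of all genes were above and below. Those above were Tsga13, beside Copg2, with a difference of 0.469, and Cep41, a centrosome and cilium gene between Cpa1 and Mest, with 0.428. Without control replicate 2 the differences of Tsga13 and Cep41 were 0.243 and 0.238. Zc3hc1, on the early flank, was next with 0.264, its groups overlapped, and its direction turned when 1 profile was left out (-0.131 to 0.659). Klhdc10 and Tmem209, also on the early flank, differed by -0.429 and -0.299. Cpa1, between Cpa5 and Cep41, differed by 0.251 with overlapping groups (1.36 and 0.785 in the controls, 1.31 and 1.34 with auxin), and by -0.035 to 0.537 when 1 profile was left out. The genes farthest from Mest, Nrf1 and Mkln1, differed by 0.096 and -0.013, and both overlapped.

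Of 7 carboxypeptidase A and B genes reported here, 3 were earlier with the groups apart and 2 were later. Over all genes the shares were 23.9% and 25.9%. The median difference of the 7 was 0.251. The 3 earlier genes were Cpa4 and Cpa5 of this domain, chosen on this contrast, and Cpa6 on chromosome 1 (0.326). The reverse was seen at Cpa3, the mast cell carboxypeptidase gene, and its neighbour Cpb1 on chromosome 3, which differed by -1.18 and -1.12. Their scores ran from -2.76 to -1.15 over the 4 profiles, whereas the lowest score of Cpa4 and Cpa5 was 0.957. Of 9 coatomer subunit genes, 1 was earlier with the groups apart and 4 were later, set against the same 23.9% and 25.9% of all genes. The 1 was Copg2 itself, also chosen on this contrast. The median of the 9 was -0.260. Copa and Copz1 differed by -0.520 and -0.488, and Copa by -0.340 without auxin replicate 1. Over all genes the median difference was -0.00049.

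Of 50 imprinted genes outside the interval, 14 were earlier with the groups apart and 13 later, or 28% and 26% set against the 23.9% and 25.9% of all genes, and their median difference was 0.0012. limma called 0 of them, and with a trended, robust variance 1 earlier and 6 later of the 50, against 2.01% and 3.3% of all genes. The 6 include Ddc beside Grb10 on chromosome 11 and Tssc4 beside Cd81 on chromosome 7, so they are not 6 separate loci. In 1 of the 50, against 392 of all 21078 genes, the difference toward earlier was at least as large as that of Mest. That gene was Dio3 (2 windows), the gene of a thyroid hormone-inactivating enzyme on chromosome 12. Dio3 scored 1.46 and 1.42 in the controls and 2.48 and 2.36 with auxin (0.980). Peg12 on chromosome 7 differed by -1.06 on 1 window, and the signalling adaptor gene Grb10 on chromosome 11 by -0.945. All of these comparisons use the same 4 profiles.

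**Figure D5:**
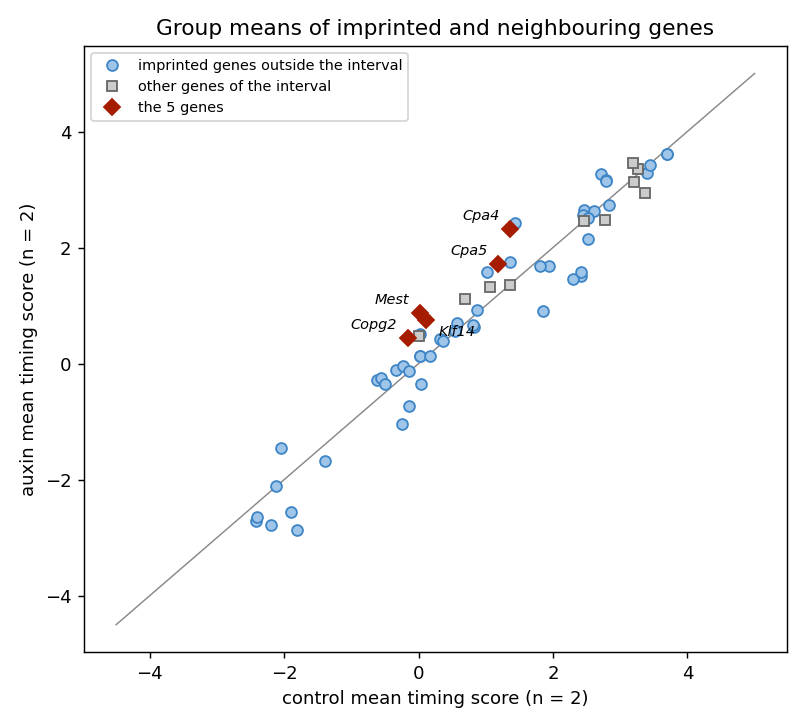
Auxin mean (vertical axis) against control mean (horizontal axis) of the timing score, n = 2 each, for 50 imprinted genes outside the interval (blue circles), 10 other genes of the interval (grey squares) and the 5 named genes (red diamonds). The line marks equal means; the 5 named genes lie above it, and the imprinted genes lie on both sides of it.

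The genes outside the interval whose 4 scores came closest to those of Mest were Ropn1 on chromosome 16 (Euclidean distance 0.084), Zfp994 and Gm7072 on chromosome 17 (0.156 and 0.165), Gtf2e1 on chromosome 16 (0.203) and Krt73 on chromosome 15 (0.220). Likeness over 4 profiles is a description only, and genes were searched for it among all with at least 3 windows. Ropn1 scored 0.084 and -0.069 in the controls and 0.998 and 0.629 with auxin, so the pattern seen at Mest also occurred elsewhere in the genome. Zfp994 and Gm7072 are neighbours in a zinc finger gene cluster, where near-identical copies can share reads.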

How the data were processed

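The authors deposited a table of timing scores for 4 profiles, 2 with auxin and 2 without. The name of the table gives quantile normalization, and its 4 sorted columns are identical, so any genome-wide shift is hidden. Bowtie2, SAMtools, bedtools and mm10 are named in the submitters' processing notes. Their roles, the smoothing, the filters and the log base of the score are not given there. No file gives read counts, so depth is unknown. Higher was taken as earlier because the auxin mean was lower in 63 of 63 regions that the authors' deposited table lists as early to late, and higher in 22 of 22 listed as late to early. The 8 columns of scores in those 2 tables were not used.

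Columns were matched to group and replicate by name. A gene's score is the mean of the 6-kb windows over its RefSeq body (GRCm38.p6), or the nearest window within 50 kb (1063 genes). limma 3.58.1 in R 4.3.3 (lmFit and eBayes with a term for auxin and 2 residual degrees of freedom) was fitted over all genes, all windows, and all 50-kb bins with at least 3 windows, and was tested on simulated data. SDs are over 2 profiles. As the replicates may be technical, p-values speak only of the spread among the profiles. Replicate numbers were not used as pairs.

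The genes, lists and tests were chosen with earlier results of these data known. Named beside the 5 genes are the 3 genes of the interval with the largest difference in each direction, the 5 genes most like Mest, and the 3 largest differences of each list; Ube2h, the third toward later, differed by -0.076. One gene of the interval is not reported here and was left out of the counts over neighbours and lists. Cpa1, Cpa6, Mkln1, Nrf1, Ddc, Cd81 and Tssc4 were named for their position or after their values were seen. The alternatives were windows as points, the median, 50 kb around the gene start, centring on chromosome 6, at least 3 windows, other variance settings, a replicate block and leaving out each profile.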

Additional observations from a re-analysis of the deposited data

How the results depend on the processing

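In 19 of the 19 values that other ways of scoring gave for the 5 genes, the direction toward earlier replication was kept. Those values come from the same profiles and largely the same windows, so they are not separate support. For Klf14 the median is the value of its single window. Leaving out each profile in turn gave 0.894 to 1.01 at Cpa4, 0.300 to 0.758 at Cpa5, 0.692 to 1.00 at Mest, 0.441 to 0.775 at Copg2 and 0.445 to 0.837 at Klf14. Klf14 has no value over 50 kb around its start. The shift of the falling slope was 67.2 to 70.5 kb at a score of 2.0, 69.4 to 71.9 kb at 1.5 and 57.5 to 110.8 kb at 1.0. When its variance was trended and robust, limma called 1119 genes, 2 of the 5 genes, and 28 windows and 3 bins of the interval. With the replicate number as a block it called 0 genes, 6 windows and 1 bin of the interval, all earlier, where 1.5% of all windows and 2.5% of all bins were called earlier and 1.96% and 3.02% later. Of the 6 windows, 5 lay just before and over Cpa4 and 1 beside Mest. The plain fit called 0 of each, and the cause was not tested. Deviations of same-numbered profiles correlated at 0.036 over all windows and 0.097 in the interval, values that a constant offset between replicates does not change. In the interval replicate 1 was above replicate 2 in both groups in each of 5 segments. Whether the replicate number marks a shared batch was not tested. The fits without 1 profile called 0 to 1 genes, the 1 without control replicate 1, and 0 of the 5 genes and of the windows and bins of the interval. Over all windows the plain fit called 1159 earlier and 2005 later. Leaving out either auxin profile removed nearly all such calls, while leaving out either control profile did not. Over all bins the plain fit called 272 earlier and 435 later, with fewer when control replicate 1 was left out and none when any other profile was. The difference in steepest fall was 0.351 over 100 kb, against 0.900 over 200 kb. Over 50 kb around their starts, Klhdc10 and Tmem209 differed by -0.045 and -0.019, Ube2h by -0.498, Copz1 by -0.169, Cep41 by 0.635, Dio3 by 0.889, and Nrf1 by -0.280, its sign turned. Depth is unknown, and 2 profiles per group give little precision at Cpa5 and Klf14, whose controls differed most between replicates.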
